A study of Rattus norvegicus with 12 samples.

Results

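Solute carriers are the membrane proteins encoded by genes with Slc symbols, and their transcripts were followed through NRK-52E cells, a rat line labelled as tubular epithelium. The genes described here are those whose symbol begins with Slc and a digit and whose raw counts summed to 500 or more over the 12 libraries. This rule took 188 of the 24660 genes in the count table, out of 356 genes with such a symbol. Of the others, 127 had some counts, and 41 had 0. The count sum chose the members and is given only as a description. Just inside it stood Slc26a9, Slc26a1 and Slc45a3 with 542, 567 and 613 counts, and just outside it Slc12a5, Slc16a3 and Slc22a18 with 461, 452 and 435 counts. Of the members, 4 have symbols that name no carrier but a scaffold, an adaptor or a neighbour of a carrier gene (Slc9a3r1, Slc9a3r2, Slc4a1ap and Slc7a6os), which leaves 184 carrier genes.

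All groups were wild-type NRK-52E cells, with 3 libraries of total RNA in each. The 3D-EV and 2D-EV groups were exposed for 24 h to TGF-beta1, a cytokine that drives fibrosis, at a labelled 10 µg/ml, and then, for 48 h more, extracellular vesicles (EVs) from three-dimensional or conventional production at 500000000 particles per ml. The TGF-beta1 group is labelled with the cytokine alone, for 24 h at the same dose, and the control group with no agent. The unit of the TGF-beta1 dose is in doubt and is printed as labelled. The sources used here give neither the origin of the vesicles, nor the harvest time of the TGF-beta1 and control cells, nor whether the cytokine stayed on during the vesicle treatment, so vesicles, time and cytokine withdrawal cannot be told apart. Nothing in the labels says that the libraries of a group came from separate cultures, so the spread that the p-values measure may be technical.

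Library totals ran from 32888125 to 39754319 counts, and the 188 members took 1.06% to 1.10% of each. Levels are CPM (counts scaled to the library total) with TMM factors, on which scale 1 count equals 0.0255 to 0.0305 CPM. Levels are compared between groups and never between genes, since they are not divided by length. Of the defining epithelial and tubule markers, Krt8 averaged 1141 CPM over the 12 libraries, Lrp2 0.985 CPM and Cubn 0.829 CPM, while Epcam and Umod were at 0 in every library. Of the 4 immune markers, Ptprc, C1qa and Itgam were at 0 in every library, and Cd68 gave the whole sum of 2.76 to 3.76 CPM in TGF-beta1 libraries, against 3.30 to 3.83 CPM in control libraries. The 7 epithelial markers summed to 1171 to 1252 CPM in TGF-beta1 libraries, against 1007 to 1022 CPM in control libraries, with no overlap. Nearly all of that sum was Krt8, which rose (log2 fold change 0.26 ± 0.029, adjusted p 1.19e-05). Of these 7 markers, 6 had count sums under 500, and 4 were tested. Among those tested, 1 rose, 0 fell and 3 did not pass, and their log2 fold changes had -0.35 as the median. The higher sum thus describes Krt8 and not the epithelial list as a whole. The 6 proximal tubule markers summed to 16.1 to 17.7 CPM in TGF-beta1 libraries, against 20.1 to 24.7 CPM in control libraries. Most of that sum was Aqp1, which fell, as given below. Of these 6 markers, 5 had count sums under 500, and 4 were tested. Among those tested, 0 rose, 1 fell and 3 did not pass. The lower sum thus describes Aqp1 and not the proximal tubule list as a whole. The 6 fibroblast markers summed to 446 to 497 CPM in TGF-beta1 libraries, against 385 to 511 CPM in control libraries, with 1 marker risen and 1 fallen. The 3 mesenchymal stromal markers summed to 5.45 to 6.87 CPM in TGF-beta1 libraries, against 3.78 to 5.63 CPM in control libraries, and 1 of them, Eng, rose (log2 fold change 0.62 ± 0.18, adjusted p 0.0229). The part of these differences in the results on carriers was not tested.

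Background: solute carriers move ions, nutrients, metabolites, metals and drugs across membranes, either down a gradient or coupled to sodium, protons or a second solute. In the kidney, the apical carriers of the proximal tubule reclaim glucose, amino acids and phosphate from the filtrate, and basolateral carriers pass them to the blood. Other families sit in mitochondria, lysosomes, synaptic-type vesicles and the Golgi.

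Carriers that mark nephron segments in the animal were few in these cells. Of 31 such genes, 6 were members: Slc7a9 and Slc3a1, the 2 chains of the cystine carrier, with 2675 and 1952 counts in all, Slc7a7 with 2120, Slc4a9 with 857, Slc47a1 with 832 and Slc4a4 with 630. A further 6 had 112 to 231 counts over the 12 libraries, among them the glucose carrier Slc5a2 with 150 and the distal sodium-chloride cotransporter Slc12a3 with 228. Another 11 had 2 to 27 counts, which includes the phosphate carrier Slc34a1 with 4, the organic anion carrier Slc22a6 with 2 and the loop cotransporter Slc12a1 with 6. The last 8 were at 0 in all 12 libraries, namely Slc34a3, Slc22a8, Slc6a19, Slc13a1, Slc9a3, Slc15a2, Slc5a12 and Slc14a2. A count of 0 allows a level of up to 3 counts, or 0.0764 to 0.0915 CPM in a library, and this limit covers counting error only. In a pool of cells, fewer cells that express a gene and less RNA per cell cannot be told apart.

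**Figure D1:**
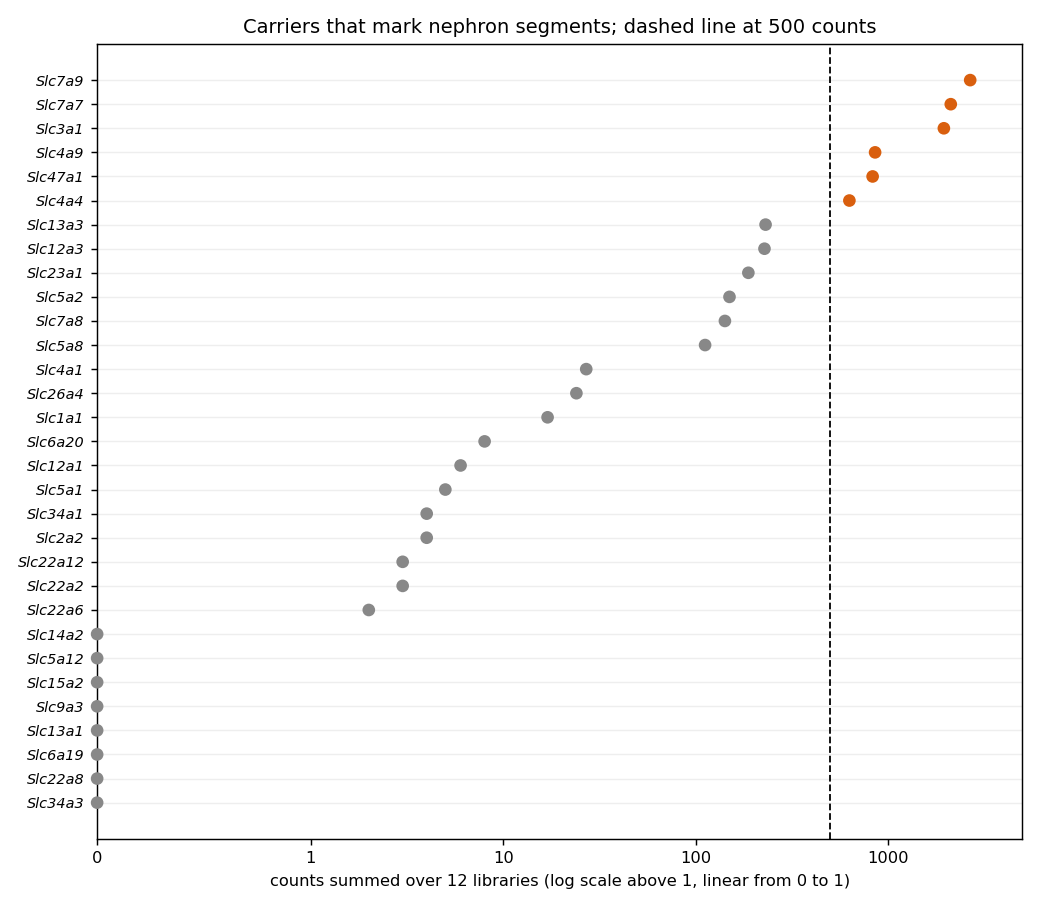
Counts summed over the 12 libraries (x axis, log scale above 1) for 31 carriers that mark nephron segments; orange points are the 6 members and grey points the 25 genes below the dashed line at 500 counts. Slc7a9 lies highest with 2675 counts, and 8 genes lie at 0.

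The first comparison asked how TGF-beta1 changed the carriers. Of the 188 members, 61 passed an adjusted p of 0.05 in edgeR's quasi-likelihood test with Benjamini-Hochberg adjustment over all 14184 genes tested, 45 of them higher and 16 lower in TGF-beta1 cells than in control cells. That is 32.4% of the members, against 22% of all genes tested. The rises made up 23.9% of the members, against 11.8% of all genes, and the falls 8.51%, against 10.2% of all genes. Among the 11996 tested genes that also had a count sum of at least 500, 25.3% passed, 13.6% as rises and 11.7% as falls. The other 127 members did not pass. The counts by substrate group given below are to be read beside these shares of all genes. The median log2 fold change over the members was 0.04, against -0.0050 over all genes, and the median size of a difference was 0.14 among members and 0.13 over all genes. Most changes were small: 5 members (2.66%) passed with a change of at least 2-fold, against 1.52% of all genes. Of these 5, Slc39a7, Slc47a1 and Slc29a4 did not pass in every alternative fit, as given below.

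**Figure D2:**
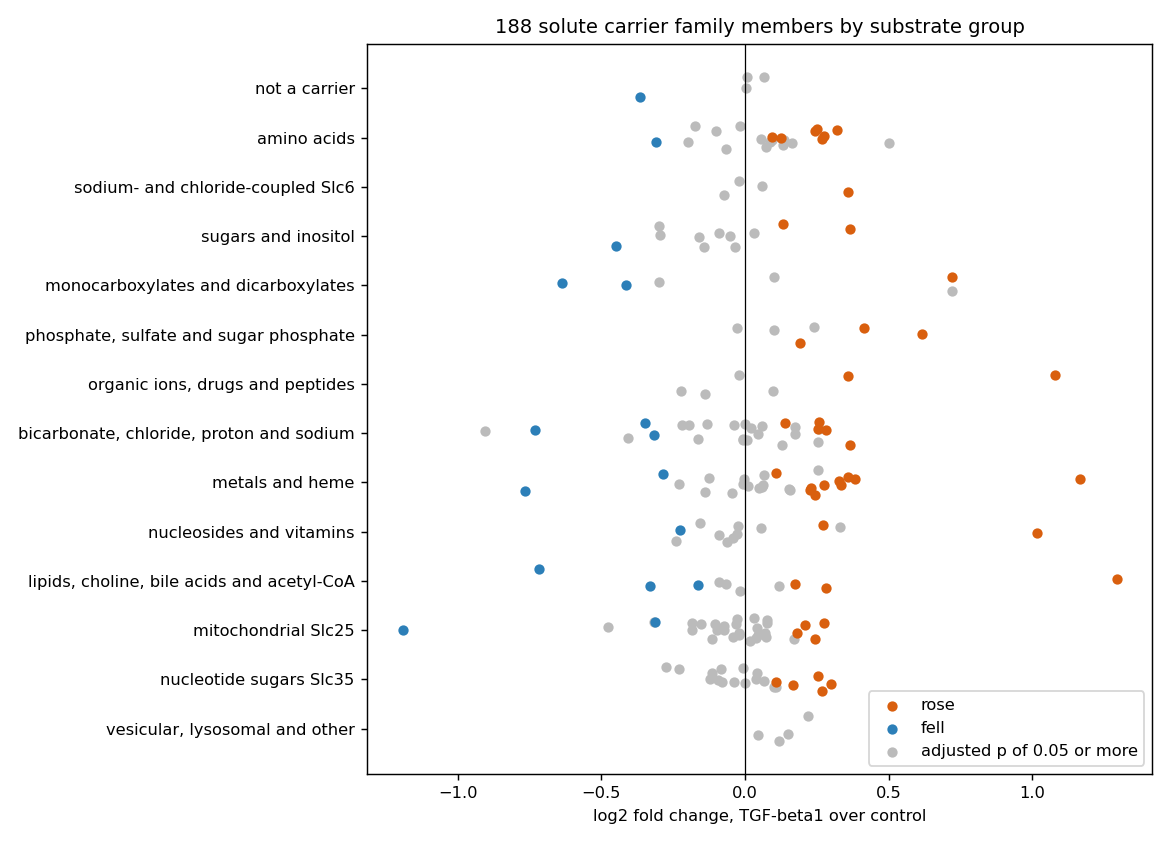
Log2 fold change of TGF-beta1 over control cells (x axis) for the 188 members in 14 groups by substrate (y axis); each point is a gene, orange where it rose, blue where it fell and grey where the adjusted p was 0.05 or more. The group of metal and heme carriers holds 10 rises and 2 falls, and the rises of Slc39a6, Slc39a7, Slc31a2 and Slc41a3 did not pass in every alternative fit. The Slc35 group, labelled nucleotide sugars, holds 5 rises and 0 falls, and 3 of these rises did not pass without control replicate 1. Groups were set by symbol family, so some hold members with other substrates.

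The promoters of 4 members with low p are shown for their start regions, 250 bases before to 50 after the RefSeq start on GRCr8, a build other than that of the counts. They lie at chr2:194812410-194812709 (Slc16a1, plus strand), chr2:59557759-59558058 (Slc1a3, minus strand), chrX:156535767-156536066 (Slc6a8, plus strand) and chr5:80830590-80830889 (Slc31a1, plus strand). Capitals mark CACGTG (the E-box), GGGCGG (the GC box) and CAGAC (a SMAD element), each searched on both strands, and no motif contains another.
Slc16a1: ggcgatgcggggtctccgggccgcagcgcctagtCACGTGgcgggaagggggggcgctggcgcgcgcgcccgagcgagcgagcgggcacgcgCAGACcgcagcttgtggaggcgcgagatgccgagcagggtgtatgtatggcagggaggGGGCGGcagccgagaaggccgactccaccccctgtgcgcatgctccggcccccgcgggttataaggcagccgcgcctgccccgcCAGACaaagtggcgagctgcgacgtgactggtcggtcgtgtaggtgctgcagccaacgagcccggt
Slc1a3: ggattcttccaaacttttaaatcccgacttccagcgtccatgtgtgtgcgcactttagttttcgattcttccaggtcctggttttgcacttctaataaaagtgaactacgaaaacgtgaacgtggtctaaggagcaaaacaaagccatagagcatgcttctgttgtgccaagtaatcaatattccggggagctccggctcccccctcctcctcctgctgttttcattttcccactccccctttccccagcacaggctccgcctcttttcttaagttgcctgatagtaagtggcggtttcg
Slc6a8: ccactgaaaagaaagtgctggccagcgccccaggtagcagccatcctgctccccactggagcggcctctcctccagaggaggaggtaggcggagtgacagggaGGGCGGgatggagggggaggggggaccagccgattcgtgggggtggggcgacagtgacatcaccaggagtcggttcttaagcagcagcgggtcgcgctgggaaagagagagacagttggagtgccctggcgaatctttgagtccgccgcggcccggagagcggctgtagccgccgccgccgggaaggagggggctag
Slc31a1: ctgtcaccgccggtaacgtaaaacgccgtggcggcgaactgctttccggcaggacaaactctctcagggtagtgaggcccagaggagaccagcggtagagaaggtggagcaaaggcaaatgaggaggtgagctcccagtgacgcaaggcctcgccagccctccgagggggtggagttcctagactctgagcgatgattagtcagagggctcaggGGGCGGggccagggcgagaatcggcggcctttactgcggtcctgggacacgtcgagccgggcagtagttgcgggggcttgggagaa
The first 2 genes fell and the last 2 rose in TGF-beta1 cells. Slc16a1 holds CAGAC 2 times, CACGTG and GGGCGG, Slc6a8 and Slc31a1 hold GGGCGG alone, and Slc1a3 holds none of the 3. These genes are a part of the 4 rises and 3 falls with the smallest p among carriers with a promoter. Not shown are Slc39a13 and Slc17a6, which rose with smaller p than Slc31a1, and Slc44a2, which fell. Slc39a13 holds GGGCGG 2 times, Slc17a6 holds CAGAC and no GGGCGG, and Slc44a2 holds none of the 3. The genes shown thus do not set risen apart from fallen members. Of the 188 members, 154 had a promoter in the table, 34 of them risen and 15 fallen; Slc20a1 and Slc25a36 had no entry. CAGAC occurred in 38.2% of the risen members and 53.3% of the fallen ones, against 50% of all 27457 promoters and 47.6% of the 8660 promoters of genes with a count sum of at least 500. GGGCGG occurred in 70.6% of the risen and 53.3% of the fallen members, against 34.9% of all promoters and 64.8% of those 8660. CACGTG occurred in 17.6% of the risen and 6.67% of the fallen members, against 6.65% of all promoters and 9.79% of the 8660. Other motifs searched were TGANTCA (AP-1), TGATGNAA (ATF4) and TCACNCCAC (a sterol element), found in 7.14%, 4.55% and 2.60% of the 154 members, against 7.33%, 3.82% and 1.13% of all promoters and 4.72%, 1.96% and 1.12% of the 8660. TGANTCA was in 2.94% of the risen and 0% of the fallen members, and in 9.52% of those that did not pass. A match is a description of the letters and shows no binding.

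Carriers of monocarboxylates gave the change with the smallest p among the members. Slc16a1, which moves lactate and pyruvate together with a proton, measured 236, 234 and 246 CPM in TGF-beta1 libraries, against 373, 374 and 367 CPM in control libraries. Every TGF-beta1 library lay below every control library, with a log2 fold change of -0.64 ± 0.035 (SE) and an adjusted p of 1.20e-08. Slc16a4, a relative whose substrates are less well known, fell to 9.66, 10.1 and 11.3 CPM in TGF-beta1 libraries, against 12.8, 13.9 and 14.6 CPM in control libraries (log2 fold change -0.42 ± 0.092, adjusted p 0.00434). The citrate carrier Slc13a5 rose to 2.33, 2.28 and 3.05 CPM in TGF-beta1 libraries, against 1.79, 1.40 and 1.46 CPM in control libraries (log2 fold change 0.72 ± 0.22, adjusted p 0.0281). Its groups did not overlap, but the adjusted p became 0.0913 without control replicate 2, 0.0845 without control replicate 3 and 0.124 without TGF-beta1 replicate 3. In all, 1 of the 6 members grouped under mono- and dicarboxylates rose, 2 fell and 3 did not pass. The median of their log2 fold changes was -0.10, and the group includes Slc13a4, a sulfate carrier.

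Slc16a1 reaches the cell surface with a chaperone, basigin (Bsg) or embigin (Emb). Bsg averaged 2779.8 ± 17.2 CPM in TGF-beta1 cells and 3194 ± 104 CPM in control cells (SD, n = 3 each), a fall with a log2 fold change of -0.20 ± 0.030 and an adjusted p of 0.000172. Emb averaged 513 ± 4.10 CPM in TGF-beta1 cells and 468 ± 6.49 CPM in control cells (SD, n = 3 each), a rise with a log2 fold change of 0.13 ± 0.026 and an adjusted p of 0.00148. Of the 17 tested chaperones and regulators of carriers listed, 4 rose and 4 fell, against 11.8% and 10.2% of all genes tested. The falls included Txnip, an arrestin that promotes the uptake of glucose carriers from the membrane into the cell, with 23.3, 20.5 and 25.7 CPM in TGF-beta1 libraries, against 56.7, 43.3 and 61.5 CPM in control libraries (log2 fold change -1.22 ± 0.18, adjusted p 0.000141). They also included Slc9a3r1, a scaffold that anchors carriers at the apical membrane and a member by its symbol. Slc9a3r1 measured 259, 257 and 258 CPM in TGF-beta1 libraries, against 340.2, 319.7 and 336 CPM in control libraries, with no overlap (log2 fold change -0.37 ± 0.033, adjusted p 1.41e-06).

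The group labelled phosphate, sulfate and sugar phosphate held Slc17a6, Slc20a1, Slc20a2, Slc37a1, Slc37a3 and Slc37a4, and so no sulfate carrier. Of these 6 members, 3 rose, 0 fell and 3 did not pass, and the median log2 fold change was 0.22. Slc20a1, a sodium-phosphate cotransporter found in most cells, measured 184, 176 and 177 CPM in TGF-beta1 libraries, against 135, 138 and 129 CPM in control libraries. All TGF-beta1 libraries lay above all control libraries (log2 fold change 0.41 ± 0.049, adjusted p 2.43e-05). Slc17a6, known from neurons as a vesicular glutamate carrier and grouped here by its phosphate-carrier family, measured 58.0, 48.7 and 55.3 CPM in TGF-beta1 libraries, against 33.96, 35.6 and 36.1 CPM in control libraries. These groups did not overlap either (log2 fold change 0.62 ± 0.079, adjusted p 4.64e-05). Slc20a2, the close relative of Slc20a1, passed with a log2 fold change of 0.19 ± 0.062 and an adjusted p of 0.0364, but missed the threshold when any library other than control replicate 3 was left out, at adjusted p of 0.0659 to 0.141, and with the replicate number as a block, at 0.0555.

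**Figure D3:**
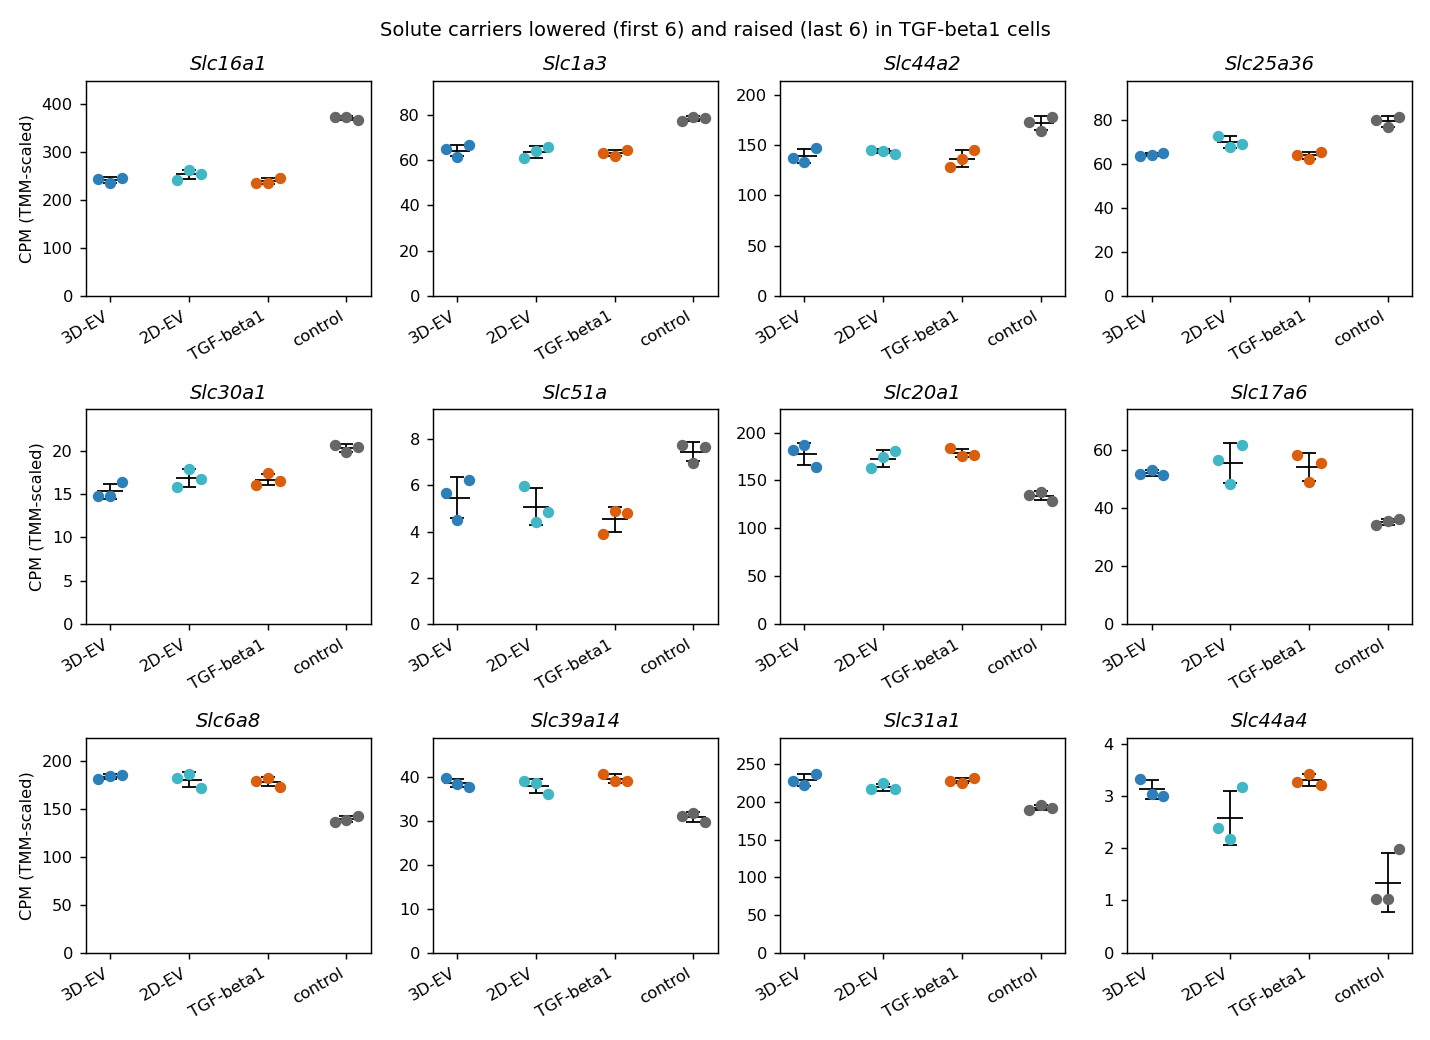
Levels in CPM (y axis, from 0) of 12 members in the 3D-EV, 2D-EV, TGF-beta1 and control groups; each point is a library, and the bars are the mean ± SD of 3. The first 6 genes, such as Slc16a1 at 234 to 246 CPM in TGF-beta1 libraries and 367 to 374 CPM in control libraries, fell, and the last 6, such as Slc20a1 at 176 to 184 CPM in TGF-beta1 libraries and 129 to 138 CPM in control libraries, rose.

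Of the 26 carriers of metals and heme, 10 rose, 2 fell and 14 did not pass, and the median of their log2 fold changes was 0.09. The copper importer Slc31a1 measured 228, 225 and 231 CPM in TGF-beta1 libraries, against 189.8, 196 and 191 CPM in control libraries (log2 fold change 0.24 ± 0.033, adjusted p 7.06e-05). The ZIP family brings zinc and other metals into the cytosol, and several of its members rose. Slc39a13 measured 80.0, 78.2 and 83.9 CPM in TGF-beta1 libraries, against 64.9, 64.6 and 62.4 CPM in control libraries (log2 fold change 0.34 ± 0.041, adjusted p 3.02e-05). Slc39a14, which also takes up iron and manganese, measured 40.8, 39.1 and 39.3 CPM in TGF-beta1 libraries, against 31.1, 32.0 and 29.8 CPM in control libraries (log2 fold change 0.36 ± 0.052, adjusted p 0.000138). The zinc carriers that fell belong to the Slc30 family, which moves zinc out of the cytosol. Slc30a1, the zinc exporter of the plasma membrane, measured 16.1, 17.4 and 16.5 CPM in TGF-beta1 libraries, against 20.6, 19.8 and 20.5 CPM in control libraries (log2 fold change -0.28 ± 0.068, adjusted p 0.00672). Slc30a2, which loads zinc into vesicles, measured 5.09, 5.53 and 3.41 CPM in TGF-beta1 libraries, against 8.07, 7.09 and 8.68 CPM in control libraries (log2 fold change -0.77 ± 0.18, adjusted p 0.00552). The direction was not the same throughout that family, since Slc30a4 rose by a log2 fold change of 0.27 ± 0.039 with an adjusted p of 0.000124. The other rises were Slc39a6, Slc39a7, Slc39a11, Slc31a2, Slc41a2 and Slc41a3, by log2 fold changes of 0.11, 1.17, 0.38, 0.23, 0.33 and 0.23. Slc39a6, Slc31a2 and Slc41a3 each missed the threshold when any of 4 libraries was left out, at adjusted p of 0.0539 to 0.145, 0.0510 to 0.0714 and 0.0519 to 0.120. These were control replicates 1 and 2 with TGF-beta1 replicates 1 and 3 for Slc39a6, control replicates 1 and 2 with TGF-beta1 replicates 1 and 2 for Slc31a2, and control replicates 2 and 3 with TGF-beta1 replicates 1 and 2 for Slc41a3.

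The rise of Slc39a7, a zinc carrier of the endoplasmic reticulum and Golgi, did not pass once its counts were summed with those of the gene beside it. Slc39a7 measured 128, 122 and 110.4 CPM in TGF-beta1 libraries, against 77.0, 17.7 and 65.9 CPM in control libraries (log2 fold change 1.17 ± 0.33, adjusted p 0.0202). Hsd17b8, the gene beside it, measured 15.5, 10.9 and 8.54 CPM in TGF-beta1 libraries, against 54.3, 97.6 and 45.1 CPM in control libraries. The control library lowest in Slc39a7 was thus the highest in Hsd17b8. The sum of the 2 genes averaged 132 ± 12.5 CPM in TGF-beta1 cells and 119 ± 10.7 CPM in control cells (SD, n = 3 each). For the sum, the log2 fold change was 0.15 ± 0.074 (SE) and the adjusted p 0.184, so the call ended; it also ended without TGF-beta1 replicate 1 or 2, at adjusted p of 0.0563 and 0.0539. Without control replicate 2, the log2 fold change of Slc39a7 was 0.75. Against control, the sum of the 2 genes did pass in edgeR in both vesicle groups. Its log2 fold changes were 0.30 with 2D-EVs and 0.24 with 3D-EVs, at adjusted p of 0.00961 and 0.0313.

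**Figure D4:**
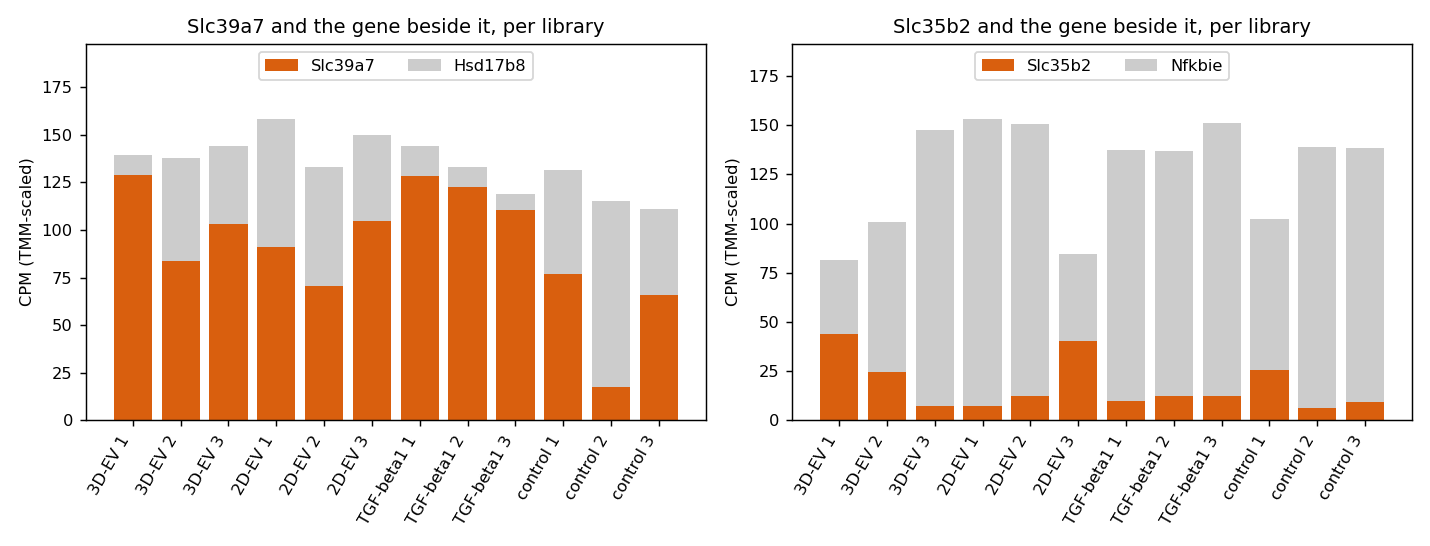
Levels in CPM (y axis, from 0) of Slc39a7 with its neighbour Hsd17b8, and of Slc35b2 with its neighbour Nfkbie, stacked for each of the 12 libraries (x axis). Slc39a7 runs from 17.7 to 129 CPM while the stacked height runs from 111 to 158 CPM; Slc35b2 runs from 6.45 to 43.7 CPM and is high where Nfkbie is low.

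Among the 21 amino acid carriers, 7 rose, 1 fell and 13 did not pass, and the median log2 fold change was 0.09. Slc1a3, a sodium-coupled glutamate and aspartate carrier, was the one that fell, with 63.2, 61.9 and 64.5 CPM in TGF-beta1 libraries, against 77.2, 79.2 and 78.7 CPM in control libraries (log2 fold change -0.31 ± 0.042, adjusted p 7.09e-05). Slc38a7, a lysosomal glutamine carrier, measured 50.8, 48.5 and 49.1 CPM in TGF-beta1 libraries, against 40.8, 38.2 and 39.8 CPM in control libraries (log2 fold change 0.32 ± 0.044, adjusted p 9.46e-05). Slc38a10 measured 126, 126 and 128 CPM in TGF-beta1 libraries, against 106, 105 and 111 CPM in control libraries (log2 fold change 0.24 ± 0.035, adjusted p 0.000136). In all 3 genes the groups were apart. Slc1a5, an exchanger of glutamine and other neutral amino acids, rose to 90.5, 90.6 and 92.7 CPM in TGF-beta1 libraries, against 78.6, 75.8 and 75.9 CPM in control libraries (log2 fold change 0.25 ± 0.060, adjusted p 0.0075). Its relative Slc1a4 rose by a log2 fold change of 0.27 ± 0.049, Slc36a4 by 0.27 ± 0.059 and Slc7a6 by 0.13 ± 0.039. Slc7a6 missed the threshold without replicate 1 or 3 of either group, each left out alone (adjusted p of 0.0678 to 0.110), and with no filter on low counts (0.0503). Slc38a2, which imports neutral amino acids with sodium, measured 886, 905 and 897 CPM in TGF-beta1 libraries, against 828, 818 and 871 CPM in control libraries. Its rise was small, with a log2 fold change of 0.09 ± 0.028 and an adjusted p of 0.0243. Leaving out control replicate 1, control replicate 2, TGF-beta1 replicate 2 or TGF-beta1 replicate 3 ended the call, at adjusted p of 0.0577 to 0.0900.

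The cystine-glutamate exchanger Slc7a11 measured 5.32, 5.79 and 7.03 CPM in TGF-beta1 libraries, against 4.21, 4.90 and 3.72 CPM in control libraries. The groups did not overlap, but the log2 fold change of 0.50 ± 0.18 had an adjusted p of 0.0652. Slc3a2, the heavy chain that carries Slc7a11 and Slc7a5 to the membrane, averaged 205 ± 2.77 CPM in TGF-beta1 cells and 195 ± 9.82 CPM in control cells (SD, n = 3 each; log2 fold change 0.07 ± 0.049, adjusted p 0.339). Slc7a5, a carrier of large neutral amino acids, averaged 109 ± 6.96 CPM in TGF-beta1 cells and 97.0 ± 9.44 CPM in control cells (SD, n = 3 each; log2 fold change 0.16 ± 0.094, adjusted p 0.246). The creatine carrier Slc6a8 rose, with 179.5, 183 and 174 CPM in TGF-beta1 libraries, against 137, 138 and 143 CPM in control libraries (log2 fold change 0.36 ± 0.036, adjusted p 5.89e-06). It was the 1 of 4 Slc6 members that passed. The taurine carrier Slc6a6 averaged 200.1 ± 7.83 CPM in TGF-beta1 cells and 192 ± 1.73 CPM in control cells (SD, n = 3 each), with a log2 fold change of 0.06 ± 0.037 and an adjusted p of 0.287.

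Of the 11 members grouped under sugars and inositol, 2 rose, 1 fell and 8 did not pass. The median of their log2 fold changes was -0.09, and the group includes Slc5a6, a vitamin carrier. The glucose carrier Slc2a1 measured 140.0, 140.3 and 136 CPM in TGF-beta1 libraries, against 121, 129 and 130.4 CPM in control libraries (log2 fold change 0.13 ± 0.038, adjusted p 0.0221). This rise missed the threshold when control replicate 1, TGF-beta1 replicate 1 or TGF-beta1 replicate 2 was left out, at adjusted p of 0.107, 0.0591 and 0.0760. Slc2a6, a lysosomal member of the family, measured 16.2, 15.9 and 15.5 CPM in TGF-beta1 libraries, against 13.2, 12.2 and 11.5 CPM in control libraries (log2 fold change 0.37 ± 0.086, adjusted p 0.00651). Slc2a12, another glucose carrier, measured 7.47, 6.94 and 6.37 CPM in TGF-beta1 libraries, against 9.52, 8.90 and 9.94 CPM in control libraries, where it was higher (log2 fold change -0.45 ± 0.11, adjusted p 0.00824). The inositol carrier Slc5a3 did not pass, at a log2 fold change of -0.16 ± 0.20 and an adjusted p of 0.625.

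Carriers of acid, base and salt went both ways: 5 of 27 rose, 3 fell and 19 did not pass, and the median of their log2 fold changes was 0.0059. Slc4a7, which imports sodium with bicarbonate, measured 9.69, 9.97 and 9.01 CPM in TGF-beta1 libraries, against 7.87, 7.23 and 7.14 CPM in control libraries (log2 fold change 0.37 ± 0.091, adjusted p 0.00924). The anion exchangers Slc4a2, Slc26a6 and Slc26a11 also rose, by log2 fold changes of 0.14, 0.26 and 0.28. Without control replicate 2 the adjusted p was 0.0718 for Slc26a6 and 0.0634 for Slc26a11, and without TGF-beta1 replicate 2 it was 0.0536 for Slc26a11. The falls were the sodium-calcium exchanger Slc8a1, the anion exchanger Slc4a3 and Slc12a8. Slc8a1 averaged 19.1 ± 2.78 CPM in TGF-beta1 cells and 24.4 ± 1.28 CPM in control cells (SD, n = 3 each; adjusted p 0.0116), Slc4a3 13.9 ± 0.693 and 17.3 ± 0.772 CPM (adjusted p 0.0167) and Slc12a8 1.41 ± 0.0873 and 2.34 ± 0.555 CPM (adjusted p 0.024). Each of these 3 missed the threshold without control replicate 1, at adjusted p of 0.0569, 0.0628 and 0.0722, and without at least 1 other library. These were TGF-beta1 replicate 1 for Slc8a1 (0.0524), control replicate 2 and TGF-beta1 replicate 3 for Slc4a3 (0.0514 and 0.0615), and control replicate 2, TGF-beta1 replicate 2 and TGF-beta1 replicate 3 for Slc12a8 (0.117, 0.0777 and 0.0632). Slc4a4, the sodium-bicarbonate cotransporter of the proximal tubule, measured 1.15, 1.15 and 1.62 CPM in TGF-beta1 libraries, against 1.79, 2.07 and 3.50 CPM in control libraries, with no overlap and an adjusted p of 0.0592 (log2 fold change -0.91 ± 0.32). The chloride cotransporter Slc12a2 averaged 189 ± 4.50 CPM in TGF-beta1 cells and 189 ± 1.496 CPM in control cells (SD, n = 3 each; adjusted p 0.981).

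Of the 10 carriers of lipids, choline, bile acids and acetyl-CoA, 3 rose, 3 fell and 4 did not pass. Slc44a2, a choline carrier, measured 128, 136 and 145 CPM in TGF-beta1 libraries, against 173, 164 and 178 CPM in control libraries (log2 fold change -0.33 ± 0.049, adjusted p 0.000158). Slc44a1, another choline carrier, also fell, by a log2 fold change of -0.16 ± 0.035 (adjusted p 0.00353). Their relative Slc44a4, known for uptake of a thiamine derivative, rose to 3.28, 3.43 and 3.21 CPM in TGF-beta1 libraries, against 1.02, 1.02 and 1.99 CPM in control libraries (log2 fold change 1.29 ± 0.24, adjusted p 0.000989). Slc51a, a subunit of the basolateral steroid and bile acid carrier, fell to 3.91, 4.89 and 4.81 CPM in TGF-beta1 libraries, against 7.73, 6.97 and 7.67 CPM in control libraries (log2 fold change -0.72 ± 0.15, adjusted p 0.0025). The fatty acid carrier Slc27a4 rose by a log2 fold change of 0.28 ± 0.065 (adjusted p 0.00534), and Slc10a3 by 0.18 ± 0.042 (adjusted p 0.00707).

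Carriers of drugs, nucleosides and vitamins included low transcripts with changes of about 2-fold. Slc47a1, the exporter of organic cations into the urine, measured 2.59, 2.42 and 1.95 CPM in TGF-beta1 libraries, against 0.824, 1.34 and 1.12 CPM in control libraries (log2 fold change 1.08 ± 0.28, adjusted p 0.0123, and 0.0590 without control replicate 1). Slc29a4, a carrier of monoamines, measured 1.81, 1.85 and 2.31 CPM in TGF-beta1 libraries, against 0.938, 1.40 and 0.616 CPM in control libraries (log2 fold change 1.02 ± 0.29, adjusted p 0.0199). Its call ended when control replicate 1, control replicate 3 or TGF-beta1 replicate 3 was left out, at adjusted p of 0.0620, 0.0832 and 0.0747. The ascorbate carrier Slc23a2 rose by a log2 fold change of 0.27 ± 0.072 (adjusted p 0.0132, and 0.0506 and 0.0554 without control replicate 1 or 2). Slc22a15, of the organic ion family, rose by 0.36 ± 0.098 (adjusted p 0.0157, and 0.0693 without control replicate 3 and 0.0650 without TGF-beta1 replicate 1). The proton-coupled folate carrier Slc46a1 fell, with a log2 fold change of -0.23 ± 0.066 (adjusted p 0.0231, and 0.105 without control replicate 3, 0.0954 without TGF-beta1 replicate 1 and 0.0558 without TGF-beta1 replicate 3). In the group of organic ions, drugs and peptides 2 of 6 rose and 0 fell, and in that of nucleosides and vitamins 2 of 12 rose and 1 fell.

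The Slc25 family holds mainly carriers of the inner mitochondrial membrane, with Slc25a17 of peroxisomes and Slc25a46 of the outer membrane among its members here. Of these 31 members 4 rose, 2 fell and 25 did not pass, and the median of their log2 fold changes was -0.02. Slc25a36, a carrier of pyrimidine nucleotides, measured 63.9, 62.1 and 65.2 CPM in TGF-beta1 libraries, against 79.9, 76.4 and 81.3 CPM in control libraries (log2 fold change -0.31 ± 0.040, adjusted p 4.67e-05). Slc25a23, which exchanges ATP-Mg for phosphate, measured 1.18, 1.91 and 1.62 CPM in TGF-beta1 libraries, against 3.47, 2.48 and 4.81 CPM in control libraries (log2 fold change -1.19 ± 0.26, adjusted p 0.00343). The citrate carrier Slc25a1 rose by a log2 fold change of 0.27 ± 0.048 (adjusted p 0.000726) and the glutamate carrier Slc25a22 by 0.24 ± 0.040 (adjusted p 0.000438). Slc25a5, an ADP-ATP exchanger with processed pseudogenes that may share its reads, rose by 0.21 ± 0.050 (adjusted p 0.00721) and is uncertain for that reason. The remaining rise was that of Slc25a44, at 0.18 ± 0.061 (adjusted p 0.0463), which missed the threshold when any library other than control replicate 3 was left out, at adjusted p of 0.0747 to 0.181. It also missed it with no filter on low counts, in the fit of 6 libraries and with the replicate number as a block, at 0.0583, 0.0763 and 0.0620.

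Of the 20 Slc35 members, 5 rose, 0 fell and 15 did not pass. They were grouped as nucleotide sugar carriers by symbol, and not all are known to carry a nucleotide sugar. Without control replicate 1, 3 of the 5 rises missed the threshold, namely Slc35a4, Slc35c1 and Slc35e4, at adjusted p of 0.0997, 0.115 and 0.0508. Slc35c1 also missed it without TGF-beta1 replicate 2 or 3 (0.0943 and 0.0982). Slc35a4 missed it in 8 of 12 alternatives, among them any library left out other than TGF-beta1 replicate 2, at adjusted p of 0.0650 to 0.167. The other 2 passed in all 12 alternatives. They were Slc35a2 and Slc35e1. Slc35a2, which brings UDP-galactose into the Golgi, averaged 69.7 ± 2.42 CPM in TGF-beta1 cells and 56.6 ± 0.669 CPM in control cells (SD, n = 3 each; log2 fold change 0.30 ± 0.044, adjusted p 0.000145). Slc35e1 rose by 0.27 ± 0.053 (adjusted p 0.00175). Of the 4 remaining vesicular and lysosomal members 0 passed in edgeR, 1 of them at an unadjusted p under 0.05 (Slc66a2, p 0.0298, adjusted p 0.105, and 0.144 in DESeq2). Slc66a3, of the same group, averaged 110.2 ± 0.428 CPM in TGF-beta1 cells and 107 ± 0.801 CPM in control cells (SD, n = 3 each; adjusted p 0.432 in edgeR).

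Other transport genes were set beside the carriers. Over all genes tested, 22% passed with TGF-beta1 against control, 11.8% as rises and 10.2% as falls. Of 18 tested subunits of sodium, calcium and proton pumps, 4 rose and 0 fell. The largest of these rises was that of Fxyd5, a regulator of the sodium pump, with 238, 249 and 235 CPM in TGF-beta1 libraries, against 150.0, 147 and 135 CPM in control libraries (log2 fold change 0.74 ± 0.041, adjusted p 1.45e-08). Of 19 tested ABC transporters, which use ATP directly, 3 rose and 3 fell, among them the urate and drug exporter Abcg2 (log2 fold change 0.61 ± 0.069, adjusted p 1.74e-05) and the drug exporter Abcc3 (log2 fold change -0.43 ± 0.080, adjusted p 0.00108). Of 10 tested channels and aquaporins, 0 rose and 2 fell, which were the water channel Aqp1 (log2 fold change -0.40 ± 0.12, adjusted p 0.0245) and the magnesium channel Trpm6 (log2 fold change -0.43 ± 0.14, adjusted p 0.0355). Of 3 tested Slco carriers 1 rose, and of 15 tested transcription factors of carrier genes 1 rose and 1 fell. These were Tfe3 and Nfe2l2, with log2 fold changes of 0.17 and -0.19.

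The next comparisons asked what the vesicles did after TGF-beta1. They share the TGF-beta1 libraries with each other and with the comparison above. With 2D-EVs, 0 of 188 members passed in edgeR, against 0.0282% of all genes tested (4 genes), with 12 members at an unadjusted p under 0.05 (6.38%, against 7.1% of all genes) and 1 member called by DESeq2. With 3D-EVs, 0 members passed in edgeR, against 0% of all genes, with 11 members at an unadjusted p under 0.05 (5.85%, against 7.24% of all genes) and 0 called by DESeq2. For 3D-EVs against 2D-EVs, 0 members passed in edgeR, against 0.00705% of all genes (1 gene), with 15 members at an unadjusted p under 0.05 (7.98%, against 6.9% of all genes) and 1 called by DESeq2. The median log2 fold change over the members was 0.02 for 2D-EVs, 0.0091 for 3D-EVs and -0.01 for 3D-EVs against 2D-EVs. None of the pumps, ABC transporters, Slco carriers, regulators, transcription factors or channels listed passed in edgeR in these 3 comparisons.

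A member that does not pass is not shown to be unchanged, so the intervals matter. The 95% interval of a log2 fold change had a median half-width of 0.15. With 2D-EVs against TGF-beta1 the interval lay within 1.5-fold either way for 167 of 188 members and within 2-fold for 185. With 3D-EVs against TGF-beta1 these numbers were 165 and 183, and for 3D-EVs against 2D-EVs they were 168 and 186. The largest log2 fold changes of both vesicle comparisons with TGF-beta1 were those of Slc35b2, a carrier of the sulfate donor into the Golgi. They were 0.79 with 2D-EVs and 1.15 with 3D-EVs, at adjusted p of 0.85 and 0.707. Its levels were 43.7, 24.7 and 7.47 CPM in 3D-EV libraries and 7.23, 12.1 and 40.1 CPM in 2D-EV libraries, against 9.95, 12.2 and 12.1 CPM in TGF-beta1 libraries. Nfkbie, the gene beside it, measured 37.6, 76.3 and 140.0 CPM in the same 3D-EV libraries, highest where Slc35b2 was lowest. For the sum of both genes the log2 fold changes were -0.13 with 2D-EVs and -0.37 with 3D-EVs, at adjusted p of 0.940 and 0.728.

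**Figure D5:**
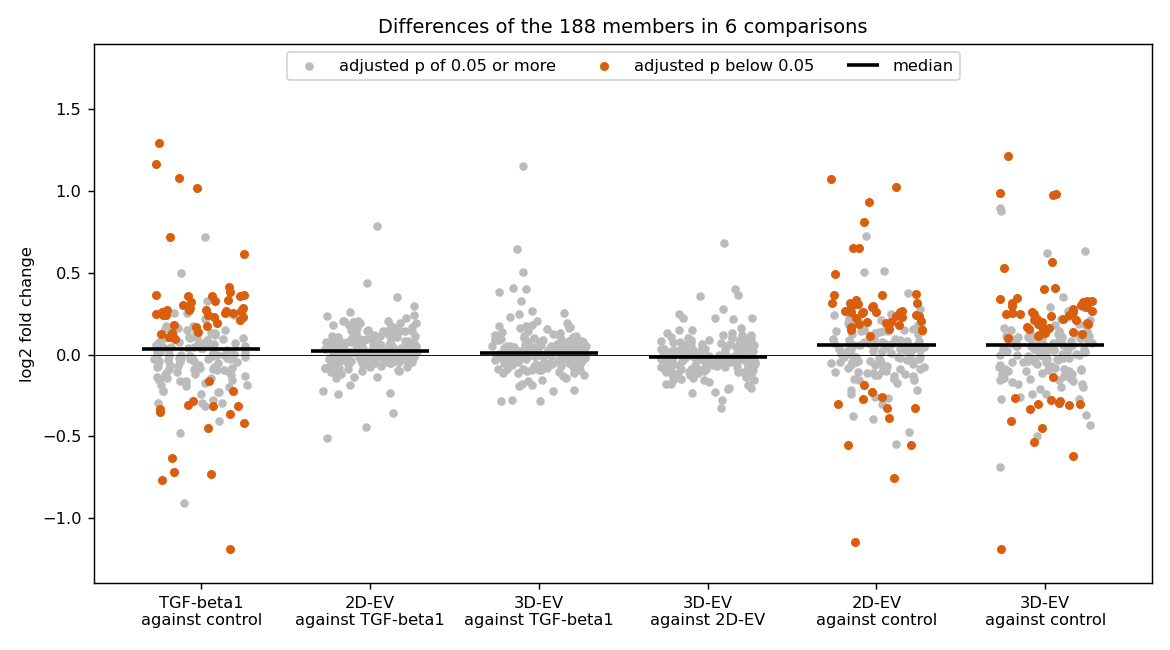
Log2 fold changes (y axis) of the 188 members in 6 comparisons (x axis); each point is a gene, orange where the adjusted p was below 0.05, and the black line is the median. Orange points number 61 for TGF-beta1, 55 for 2D-EVs and 60 for 3D-EVs against control, and 0 in the 3 comparisons in the middle; comparisons that share libraries are not independent.

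For members with small p under TGF-beta1, the levels with vesicles are given next to those with TGF-beta1 alone. Slc16a1 measured 244, 235 and 246 CPM in 3D-EV libraries and 243, 262 and 255 CPM in 2D-EV libraries, against 236, 234 and 246 CPM in TGF-beta1 libraries. The intervals of its log2 fold change were -0.06 to 0.09 with 3D-EVs and 0.01 to 0.16 with 2D-EVs. Slc20a1 measured 182, 187 and 165 CPM in 3D-EV libraries and 163, 175 and 181 CPM in 2D-EV libraries, against 184, 176 and 177 CPM in TGF-beta1 libraries. These groups overlapped, and the intervals were -0.11 to 0.10 with 3D-EVs and -0.15 to 0.06 with 2D-EVs. Slc6a8 measured 181, 185 and 186 CPM in 3D-EV libraries and 183, 187 and 172 CPM in 2D-EV libraries, against 179.5, 183 and 174 CPM in TGF-beta1 libraries, again with overlap. For Slc17a6 the intervals were -0.22 to 0.11 with 3D-EVs and -0.13 to 0.20 with 2D-EVs, and for Slc1a3 they were -0.06 to 0.11 and -0.08 to 0.10.

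Members with the smallest p in these comparisons were picked after their values were seen. Slc9a3r1 measured 289.6, 274 and 285 CPM in 2D-EV libraries, against 259, 257 and 258 CPM in TGF-beta1 libraries, with no overlap. Its log2 fold change was 0.14 ± 0.033 with an adjusted p of 0.238 in edgeR and 0.00768 in DESeq2. Slc25a36 measured 72.7, 67.5 and 68.8 CPM in 2D-EV libraries, against 63.9, 62.1 and 65.2 CPM in TGF-beta1 libraries, also apart (log2 fold change 0.13 ± 0.040, p 0.00614, adjusted p 0.415 in edgeR). Slc4a7 measured 7.66, 7.46 and 8.45 CPM in 3D-EV libraries, against 9.69, 9.97 and 9.01 CPM in TGF-beta1 libraries. The 3D-EV libraries lay below all TGF-beta1 libraries (log2 fold change -0.28 ± 0.091, p 0.00727, adjusted p 0.596 in edgeR). Between the vesicle preparations, Slc38a2 measured 905, 908 and 929 CPM in 3D-EV libraries, against 862, 848 and 852 CPM in 2D-EV libraries, apart by a log2 fold change of 0.10 ± 0.028. Its adjusted p was 0.598 in edgeR and 0.0234 in DESeq2.

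Against control cells, both vesicle groups still differed in many members, and these comparisons share the control libraries with that of TGF-beta1. With 3D-EVs 60 members passed (31.9%, against 23% of all genes), 46 higher and 14 lower (24.5% and 7.45%, against 12.2% and 10.8% of all genes). With 2D-EVs 55 members passed (29.3%, against 18.6% of all genes), 43 higher and 12 lower (22.9% and 6.38%, against 10.5% and 8.13% of all genes). Slc16a1 had log2 fold changes against control of -0.62 with 3D-EVs, -0.55 with 2D-EVs and -0.64 with TGF-beta1 alone. For Slc20a1 they were 0.41, 0.37 and 0.41, and for Slc17a6 0.56, 0.65 and 0.62. Among the metal and heme carriers, 10 rose and 1 fell with 3D-EVs, and 7 rose and 1 fell with 2D-EVs. Among the acid, base and salt carriers, 3 rose and 5 fell with 3D-EVs, and 6 rose and 2 fell with 2D-EVs.

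Some members passed against control with vesicles and not with TGF-beta1 alone, or the reverse, and neither pattern shows a difference between those groups. Slc7a11 measured 6.24, 6.86 and 5.42 CPM in 3D-EV libraries and 4.75, 7.67 and 7.72 CPM in 2D-EV libraries, with adjusted p against control of 0.0493 and 0.0212, and of 0.0652 with TGF-beta1. Slc4a4 measured 1.43, 0.854 and 0.923 CPM in 3D-EV libraries and 0.845, 1.61 and 0.854 CPM in 2D-EV libraries, with adjusted p against control of 0.0167 and 0.0239, and of 0.0592 with TGF-beta1. Against TGF-beta1 cells, Slc7a11 had adjusted p of 0.986 with 3D-EVs and 0.912 with 2D-EVs, and Slc4a4 of 0.91 and 0.929. Slc25a23 had log2 fold changes against control of -0.69 with 3D-EVs, -0.76 with 2D-EVs and -1.19 with TGF-beta1, at adjusted p of 0.0605, 0.0479 and 0.00343. Against TGF-beta1 cells it stood higher by 0.50 ± 0.26 with 3D-EVs, with no overlap, and by 0.43 ± 0.26 with 2D-EVs, at adjusted p of 0.7 and 0.802.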

How the data were processed

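RNA was sequenced from 12 libraries of NRK-52E cells. The authors deposited raw counts, as whole numbers with no normalization. Reads were handled with StringTie, HISAT2, fastp and DESeq2 on build mRatBN7.2, per the submitters' processing notes; the sources used here do not give versions, counting settings or strand handling. The joint table matched the 12 single tables in every value, and 0 columns went unused.

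All 24660 genes entered edgeR 4.0.16 (R 4.3.3): filterByExpr with a minimum count of 10 left 14184, TMM factors ran from 0.983 to 1.03, and a single fit of 4 group means gave 6 contrasts by the quasi-likelihood F-test, adjusted by Benjamini-Hochberg over all genes tested, with a threshold of 0.05. The fit's own degrees of freedom set the 95% intervals. Counting error alone would give a chi-square of 1 per degree of freedom between libraries of a group, and the pairs had 6.56 to 10.4. The script was tested on simulated data. Alternatives were other size factors, no filter, DESeq2 1.42.0, a fit of 6 libraries, a replicate block, member sums of 100 or 1000 and leaving out each library; the sum of neighbouring genes was added after seeing the data. The labels give no sequencing batch.

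The members, substrate groups and lists were chosen with earlier results of these data known. Substrate groups were set by symbol family, so some hold members with other substrates. Named members are, per comparison, the 6 largest rises and falls that passed without overlap, up to 2 rises and 2 falls per substrate group by p, or the 2 highest by level, a panel of 15 carriers, and the nephron carriers; the lists gave up to 2 genes a direction. Others were named after their values were seen. One member is not reported here by name. Promoters come from RefSeq (GRCr8).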

Additional observations from a re-analysis of the deposited data

How the results depend on the processing

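Of the 61 members called with TGF-beta1, 38 passed under all 12 alternatives of that comparison (26 rises and 12 falls), 23 were lost under at least 1, and 18 of these only when a library was left out; for the others the cause was not tested. No call of a named member changed direction in the alternatives run. Differences that had not passed did change sign when counts were summed with those of the neighbouring gene. For Slc35b2 the log2 fold change was 0.16 for the sum and -0.28 for the gene alone with TGF-beta1 against control, -0.13 and 0.79 with 2D-EVs against TGF-beta1, and -0.37 and 1.15 with 3D-EVs against TGF-beta1. The sum with Nfkbie was itself uneven between libraries, so its sign does not describe Slc35b2 alone. For Slc39a7 against TGF-beta1, the log2 fold changes of the sum and of the gene alone were 0.15 and -0.44 with 2D-EVs, and 0.09 and -0.19 with 3D-EVs. For 3D-EVs against 2D-EVs they were -0.07 and 0.25 for Slc39a7, -0.24 and 0.36 for Slc35b2, and -0.04 and 0.69 for Slc16a11, summed with Slc16a13. The sign also changed for Slc35b2 with 3D-EVs against control (-0.21 and 0.88) and for Slc16a11 with 3D-EVs against TGF-beta1 (-0.15 and 0.18). With each library left out in turn, 33 to 40 members rose and 13 to 16 fell with TGF-beta1, 35 to 39 rose and 8 to 10 fell with 3D-EVs against control, 31 to 41 rose and 7 to 11 fell with 2D-EVs against control, and 0 passed in the other 3 comparisons. The falls dropped by more than 1.5 times to 9 without control replicate 1, 9 without 3D-EV replicate 1 and 8 without 3D-EV replicate 2 for 3D-EVs against control, and to 7 without 2D-EV replicate 3 for 2D-EVs against control. Falls over all genes also dropped in these 4 fits, to 1171, 1243 and 1075 from 1531, and to 897 from 1153. With TGF-beta1, leaving out a library gave 1337 to 1423 rises and 1078 to 1150 falls over all genes, against 1676 and 1448 in the main test. DESeq2 called 1 member that rose with 2D-EVs against TGF-beta1 (Slc9a3r1) and 1 that rose with 3D-EVs against 2D-EVs (Slc38a2), where edgeR called 0; the cause was not tested. Over all genes, DESeq2 called 8 rises and 41 falls with 2D-EVs and 6 and 6 with 3D-EVs against TGF-beta1, and 28 and 2 with 3D-EVs against 2D-EVs. With no filter on low counts these were 2 and 12, 0 and 0, and 7 and 1, against 0 and 4, 0 and 0, and 1 and 0 in the main test. With the replicate number as a block, 42 members rose and 16 fell with TGF-beta1, 45 rose and 13 fell with 3D-EVs and 42 rose and 10 fell with 2D-EVs against control, and 0 passed elsewhere. Over all genes, the block gave 1550 rises and 1308 falls, 1590 and 1367, and 1354 and 1008 in the same 3 comparisons. The 18 same-numbered pairs of libraries had residual correlations of -0.0657 to 0.0452, with 0 pairs above 0.1, and the best partner of 5 of the 12 libraries had the same number, so pairing was not assumed. Depth limits the low members: 3 counts equal 0.0764 to 0.0915 CPM.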

Other observations

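Slc48a1, a heme carrier of lysosomes and endosomes, measured 274, 259 and 275 CPM in 3D-EV libraries, 137, 283 and 272 CPM in 2D-EV libraries and 260.0, 252 and 275 CPM in TGF-beta1 libraries, against 271, 256 and 132 CPM in control libraries. One 2D-EV library and one control library thus stood far below the other 10, which ran from 252 to 283 CPM, and no comparison of this gene passed in edgeR (adjusted p of 0.508 with TGF-beta1 against control). It was chosen after its values were seen.

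Slc16a11, a relative of Slc16a1, measured 2.07, 5.28 and 2.91 CPM in TGF-beta1 libraries, against 3.58, 1.87 and 0.784 CPM in control libraries (log2 fold change 0.72 ± 0.58, adjusted p 0.43). Summed with its neighbour Slc16a13, it averaged 21.1 ± 1.13 CPM in TGF-beta1 cells and 18.6 ± 1.04 CPM in control cells (SD, n = 3 each), with a log2 fold change of 0.19 ± 0.065 (SE) and an adjusted p of 0.0553.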
